A study of Mus musculus with 2 samples.

Results

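The globin genes of the mouse embryo were described here as 7 members of the 18131 genes measured: the α-type genes Hba-x, Hba-a1 and Hba-a2 and the β-type genes Hbb-y, Hbb-bh1, Hbb-bs and Hbb-bt. They were taken by name and followed in 2 sets of cells. The first set held the 783 of 21723 cells in which the members made up at least 5% of the unique molecular identifiers (UMIs, which count captured transcripts), called globin-rich cells below. The second held all other cells, where the same genes were read as background. Single-cell RNA-seq had been carried out on tissue dissected around the cardiac neural crest of C57BL/6 embryos at E9.5, to ask how loss of Prdm6 changes neural crest cells. Of the 2 libraries, the WT one held cells of genotype Prdm6+/+; Wnt1-Cre2; ZsGreen1 and the KO one cells of genotype Prdm6f/f; Wnt1-Cre2; ZsGreen1, so that both genotypes carry Cre and the green reporter. Wnt1-Cre2 acts in the Wnt1 lineage, which gives rise to the neural crest, whereas red blood cells come from mesoderm. The labels call the cells cardiac neural crest cells, but the dissected region held many other types. Samples were barcoded and pooled per the methods of the study, and which embryo a cell came from was not analysed here. With 1 library per genotype no test was possible, and all intervals below are exact 95% intervals that cover counting error only.

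Hemoglobin is a tetramer of α-type and β-type chains, and the genes of each family stand in a cluster in which the embryonic genes lie nearest to the distant enhancers that drive them. The first red cells form in the yolk sac and enter the circulation as large nucleated primitive erythroid cells. They use the embryonic genes Hba-x (ζ), Hbb-y (εy) and Hbb-bh1 (βh1) beside the adult α genes Hba-a1 and Hba-a2. The adult β genes Hbb-bs and Hbb-bt become the main β-type genes in definitive red cells of the fetal liver, and later of the bone marrow.

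In GENCODE vM21 (GRCm38) the α-type genes lie on the plus strand of chromosome 11, Hba-x at chr11:32276400-32278116, Hba-a1 at chr11:32283511-32284465 and Hba-a2 at chr11:32296489-32297298. The β-type genes lie on the minus strand of chromosome 7, with Hbb-y at chr7:103851749-103853216, Hbb-bh1 at chr7:103841637-103843164, Hbb-bs at chr7:103826534-103828096 and Hbb-bt at chr7:103812524-103813996. The RefSeq promoter table (GRCm38.p6) held 6 of the 7 members, and Hbb-bh1 was not among them. The stretches just upstream of the RefSeq start are shown for an adult α gene, an embryonic β gene and an adult β gene, because these classes had different levels in the same cells. They cover chr11:32296372-32296488, chr7:103853217-103853327 and chr7:103827929-103828023. Each is written 5′ to 3′ on the strand of its gene, with CACCC and CCAAT in capitals.
Hba-a2: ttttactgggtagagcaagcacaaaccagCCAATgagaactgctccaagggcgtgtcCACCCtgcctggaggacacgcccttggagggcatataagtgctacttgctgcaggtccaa
Hbb-y: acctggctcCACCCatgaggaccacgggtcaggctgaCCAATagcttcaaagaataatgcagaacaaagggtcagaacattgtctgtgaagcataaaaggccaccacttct
Hbb-bs: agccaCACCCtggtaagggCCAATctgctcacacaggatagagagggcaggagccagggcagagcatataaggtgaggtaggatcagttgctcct
CACCC is the core of the element bound by Klf1, and CCAAT is a common promoter box. Both were searched on both strands in the 120 bases before the start, together with TATAAA and the GATA factor motif AGATAA, and no matches of different motifs overlapped in the members. The windows of Hba-x, Hba-a1 and Hbb-bs lay within the GENCODE gene bounds given above, and the other 3 overlapped them in part, since some GENCODE transcripts start further upstream. CACCC was found before all 6 genes (2 copies for Hbb-bt) and in 31.7% of 32851 such windows in the table. CCAAT was found before all but Hba-x (3 copies for Hbb-bt) and in 21.3% of windows. TATAAA was found before Hba-x and Hbb-bt and in 6.34% of windows, and AGATAA before none of the 6 and in 4.36% of windows. The windows of Hba-a1 and Hba-a2 shared a run of 117 bases, whereas the longest run shared by Hbb-bs and Hbb-bt was 14 bases. The transcripts of the copies are close too. Of the 100-base windows in the last 400 bases of the transcript, 66.8% of those of Hba-a1 were also present in Hba-a2 and 47.2% of those of Hbb-bs were also present in Hbb-bt. The split between Hba-a1 and Hba-a2, and that between Hbb-bs and Hbb-bt, is therefore uncertain, while no such window was shared between any other pair of members.

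The WT library held 11958 cells and 20781384 UMIs (median 1597 per cell), and the KO library 9765 cells and 18936857 UMIs (median 1703). Prdm6 itself had 104 UMIs in WT and 59 in KO, counts from the 3′ end of the transcript, by which an allele that has lost its floxed exon cannot be known. In globin-rich cells it had 4 UMIs in WT and 0 in KO, where 0 of 220 cells, taken as up to 3 counts, allows a share of cells with a UMI of up to 1.36%. At so low a count this says nothing of how many cells express the gene. The libraries had 26 barcode sequences in common (0.217% of WT and 0.266% of KO barcodes).

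Cells fell into a large group with little globin and a small group with much of it, and the KO library held fewer cells of the second group. There were 563 globin-rich cells in WT, or 4.71% of cells (4.34 to 5.10), and 220 in KO, or 2.25% (1.97 to 2.57). The log2 ratio of these shares, KO over WT, was −1.06 (−1.29 to −0.84). Genotype, library and the blood that remained in the dissected tissue cannot be told apart with 1 library each. The limit of 5% fell where cells were rare. The cells nearest to it had 4.87% and 5.14% globin UMIs in WT and 4.91% and 5.35% in KO, and 6 cells of each library lay between 4% and 5%. A limit of 1% took in many more WT cells (15.3%, against 2.67% in KO), and all 7 members then lay past 1.5-fold, higher in KO. More of the other genes lay past it too, with the count given further below. Globin-rich cells had a median of 13.9% globin UMIs in WT and 14.3% in KO and a highest value of 44.0% and 44.9%, whereas the other cells had medians of 0.480% and 0.232%. Globin-rich cells were also deeper, with medians of 2020 UMIs in WT and 2453 in KO, against 1576 and 1679 in the other cells.

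**Figure D1:**
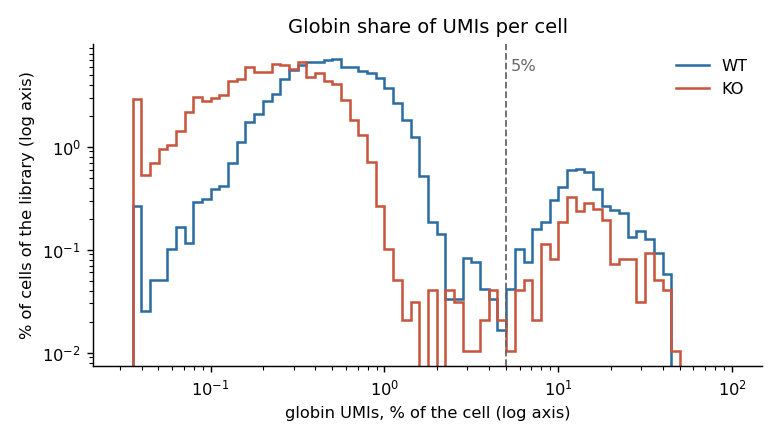
Share of the cells of each library (vertical log axis, %) by the percentage of the UMIs of a cell that came from the 7 globin genes (horizontal log axis), with WT in blue and KO in red. The dashed line marks the limit of 5%, the globin-rich cells form the hump on its right, and the main hump of KO lies to the left of that of WT. The leftmost step also holds the cells without any globin UMI.

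Erythroid genes that were no part of the rule were high in the globin-rich cells. Of 15 erythroid markers other than globins, 14 were tested and all 14 had UMIs in these cells. At least 3 of them were detected in 94.0% of the globin-rich cells in WT and in 94.5% in KO. Together they had 4904 UMIs per 1000000 (CPM) in WT and 4871 in KO, against 163 and 108 in the other cells. Among the 10 genes outside the members with the highest level in globin-rich over other cells, of 919 genes ranked by the lower ratio of the 2 libraries, were Gata1, Slc4a1, Kel, Nxpe2, Klf1, Rhag, Csf2rb, Cited4 and Acp5. Gata1, the founding erythroid GATA factor, was 114-fold higher in WT and 141-fold higher in KO, and Slc4a1, the anion exchanger band 3, was 105-fold and 186-fold higher. The ratios of the members ran from 20.8-fold (Hba-x) to 80.9-fold (Hba-a2) in WT and from 42.7-fold (Hba-x) to 164-fold (Hba-a2) in KO, but these genes chose the cells. Markers of other cells were present as well: 25.4% of the globin-rich cells in WT and 25% in KO had at least 3 markers of another type. These were mostly cardiac muscle markers, at 1007 CPM in WT and 899 CPM in KO against 3614 and 3027 CPM in the other cells. Without the cells that had 3 markers of another type, the log2 ratio of the shares of globin-rich cells was −1.06, as with them. Megakaryocyte and macrophage markers came to no more than 41.4 and 3.60 CPM.

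The globin UMIs of the globin-rich cells were mostly embryonic. Hbb-y took the largest share, 34.6% of the globin UMIs in both WT and KO. Hbb-bh1 took 21.8% in WT and 25.5% in KO, and Hba-x took 20.8% and 17.8%. The adult α genes were used beside them, Hba-a1 at 15.0% in WT and 14.2% in KO and Hba-a2 at 7.57% and 7.41%. The adult β genes were rare, with Hbb-bs at 0.234% in WT and 0.501% in KO and Hbb-bt at 0.0486% and 0.0659%. UMIs tag the 3′ end and were not divided by transcript length, and the main transcripts of the members are of similar size, from 554 bases (Hba-a2) to 801 bases (Hba-x).

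**Figure D2:**
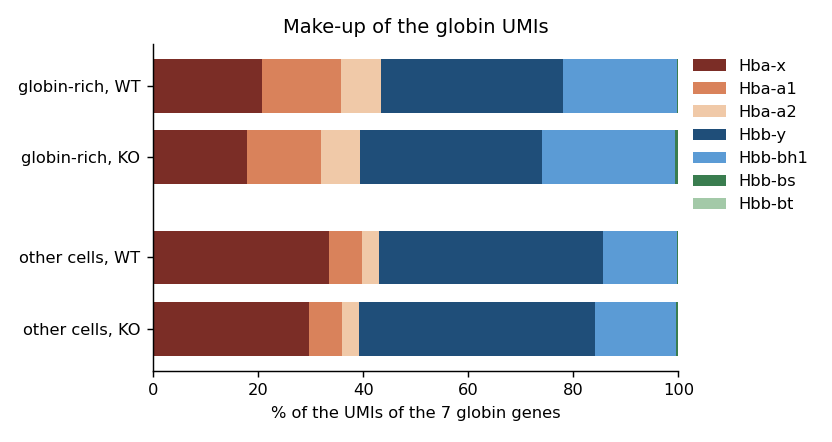
Make-up of the globin UMIs (horizontal axis, % of the UMIs of the 7 genes) in globin-rich cells and in all other cells of WT and KO, with reds for α-type, blues for embryonic β-type and greens for adult β-type genes. Hba-x takes 20.8% and 17.8% of the bar in globin-rich cells and 33.6% and 29.8% in the other cells, and Hbb-bs is at most 0.501% of a bar.

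Each of the 5 abundant members was found in at least 98.9% of the globin-rich cells of either library. The embryonic β gene Hbb-y had a lowest, median and highest value of 16, 85 and 730 UMIs per globin-rich cell in WT and of 0, 110 and 723 in KO. Hbb-bh1, its embryonic partner, had 4, 54 and 444 UMIs in WT and 2, 81 and 660 in KO. The embryonic α gene Hba-x had 4, 55 and 421 UMIs in WT and 1, 68 and 349 in KO. The ranges of the libraries overlapped for these genes, with the highest Hbb-bh1 values in KO and the highest Hba-x values in WT, and the lowest KO values belonged to cells described further below. Among the adult α genes, Hba-a1 had a lowest, median and highest value of 0, 48 and 141 in WT and of 0, 55 and 157 in KO. Hba-a2 had 0, 25 and 84 UMIs in WT and 0, 30 and 98 in KO. The adult β gene Hbb-bs had a median of 0 UMIs per cell in WT (highest 36) and of 1 in KO (highest 55), and Hbb-bt had a median of 0 in both (highest 5 and 7).

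Between the libraries, 1 of the 7 members lay past 1.5-fold in globin-rich cells, Hbb-bs, which was higher in KO. Over all 2968 genes with at least 100 UMIs in these cells, 5.83% lay past 1.5-fold, 1.72% higher and 4.11% lower in KO, and the median log2 ratio was −0.04. The lean towards lower genes rested on the scaling: 51 were higher and 122 lower, against 95 and 80 with the trimmed mean of M values and 77 and 95 with the median of ratios. The ratio of Hbb-bs was 1.13 on the log2 scale (0.94 to 1.32), from 388 CPM in WT and 849 CPM in KO. Hbb-bt had 80.4 CPM in WT and 112 CPM in KO, a log2 ratio of 0.48 (−0.01 to 0.95). Of the embryonic genes, Hbb-bh1 had 36009 CPM in WT and 43170 CPM in KO, a log2 ratio of 0.26 (0.24 to 0.28), and Hbb-y had 57181 and 58595 CPM, a ratio of 0.04 (0.02 to 0.05). The embryonic α gene Hba-x was lower in KO. Its level was 34411 CPM in WT against 30208 CPM in KO, with a log2 ratio of −0.19 (−0.21 to −0.16). Of the adult α genes, Hba-a1 had a log2 ratio of −0.05 (−0.08 to −0.02), which turned to 0.016 when the libraries were scaled by the trimmed mean of M values, and Hba-a2 one of 0.00 (−0.04 to 0.05). The ratio of Hbb-bt, which had few UMIs, moved with the processing. It was past 1.5-fold without cells that had 3 markers of another type (0.86), as a mean over cells (0.81) and in cells with at least 20% globin (1.27), and was −0.06 with cells thinned to 1000 UMIs. How far 2 WT libraries would differ from each other is unknown.

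**Figure D3:**
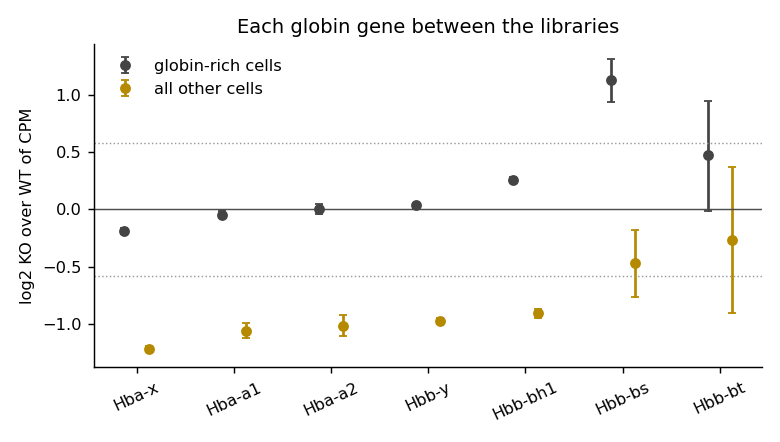
Log2 ratio of CPM, KO over WT (vertical axis), of each globin gene in globin-rich cells (grey) and in all other cells (ochre), with exact 95% counting intervals as bars and dotted lines at 1.5-fold. In globin-rich cells the α-type genes and Hbb-y lie within −0.19 to 0.04 and Hbb-bs stands at 1.13, whereas in the other cells the 5 abundant genes lie between −1.22 and −0.91.

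Ratios between members do not depend on the depth of a library, and 5 of them were followed, the adult β share further below. The Hbb-bh1 share of embryonic β-type UMIs was 38.6% in WT (38.4 to 38.9) and 42.4% in KO (42.0 to 42.8), 3.78 points higher in KO. Ratios per cell were taken in cells with at least 20 UMIs in the denominator, here 563 WT and 218 KO cells. Over these the share had a lowest, median and highest value of 11.4%, 37.7% and 58.8% in WT and of 25.6%, 41.5% and 63.3% in KO. The cells of the libraries overlapped broadly, and the spread over cells (SD 6.01 points in WT and 6.37 in KO) was above that of binomial counting alone (4.34 and 3.77). The Hba-x share of α-type UMIs was 48.0% in WT (47.6 to 48.3) and 45.2% in KO (44.7 to 45.8), with medians over cells of 43.1% and 42.9%. This ratio varied most, from 14.3% to 89.7% of the α-type UMIs of a WT cell and from 1.59% to 84.4% in KO, with SDs of 13.3 and 11.5 points against 4.68 and 4.29 for counting alone. The α-type share of all globin UMIs was 43.4% in WT (43.1 to 43.6) and 39.4% in KO (39.1 to 39.7). The Hba-a2 share of Hba-a1 and Hba-a2 UMIs was 33.6% in WT and 34.4% in KO, and its SD over cells (6.06 and 6.35 points) was close to that of counting (5.72 and 5.33). The 2 adult α copies, which cannot be told apart with certainty, were thus seen in much the same proportion in each cell, while Hba-x was not.

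The Hba-x share of α-type UMIs was higher in globin-rich cells with at least 20% globin than in those with less. The globin percentage, to which Hba-x itself adds, was cut into 4 ranges after the data had been seen. Since it is the sum of the members, their levels and shares in these ranges are a description. From cells with 5% to 10% globin to cells with 30% or more, Hbb-y went from 25299 to 137554 CPM in WT, Hbb-bh1 from 14576 to 89983 CPM and Hba-x from 16382 to 81801 CPM. Hba-a1 went from 15505 CPM in the lowest range to 25839, 28197 and 30358 CPM in the next 3. In KO, Hbb-y went from 24119 to 154409 CPM, Hbb-bh1 from 16785 to 113951 CPM and Hba-x from 15457 to 61030 CPM. Hba-a1 in KO had 15852, 25139, 26390 and 24907 CPM. Above 10% globin the adult α genes thus changed less as CPM in both libraries than the 3 embryonic genes, which were higher in each further range. Globin UMIs are part of the CPM total and take more of it in each further range. Levels per UMI that is not globin are not given for the ranges. The Hba-x share of α-type UMIs was 41.3%, 41.5%, 55.1% and 64.6% over the 4 ranges in WT and 39.8%, 41.1%, 49.6% and 61.2% in KO. The α-type share of globin UMIs was 49.7% in the lowest and 35.7% in the highest range in WT, and 48.3% and 26.8% in KO. The Hbb-bh1 share of embryonic β-type UMIs moved little, from 36.6% to 39.5% in WT and from 41.0% to 42.5% in KO. The ranges held 103, 337, 84 and 39 WT cells (median depth 1922, 1906, 2152 and 2788 UMIs) and 31, 144, 24 and 21 KO cells (2431, 2431, 2762 and 2333 UMIs).

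**Figure D4:**
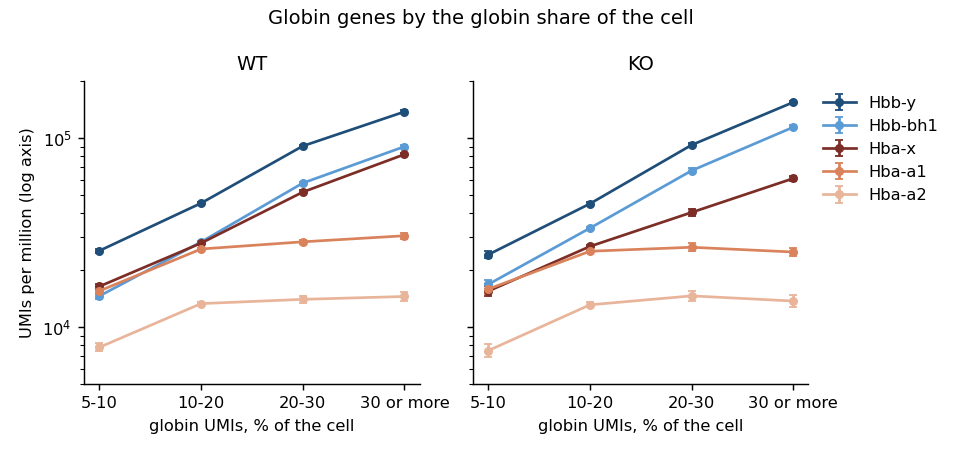
Level of the 5 abundant globin genes (vertical log axis, UMIs per 1000000) in globin-rich cells of WT and KO, grouped by the globin percentage of the cell (horizontal axis), with exact 95% Poisson intervals smaller than most points. Hbb-y, Hbb-bh1 and Hba-x are higher in each further range, while Hba-a1 and Hba-a2 change less from 10% on. Globin UMIs are part of the total.

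Other genes were read against the Hba-x share by ordering the globin-rich cells of both libraries by it and cutting them into 3 equal parts, an order also chosen after the data had been seen. Median depth was 1846, 2057 and 2104 UMIs over the parts in WT and 2393, 2554 and 2445 in KO. The median globin percentage was 20.8% in WT and 21.5% in KO in the highest part against 12.7% and 12.6% in the lowest. Genes that the Hba-x order separated most, in the same direction in both libraries, were named from 919 genes, of which 33 lay past 1.5-fold in both. Higher in the highest part were Mgst3, a microsomal glutathione transferase with the largest log2 difference of the named genes in either library (1.49 in WT), Tmem14c, a mitochondrial protein of heme synthesis (1.01 in WT and 1.18 in KO), and the respiratory chain subunits Ndufs7 (1.03 and 0.97), Uqcrb (1.01 and 0.86) and Ndufb2 (0.73 and 0.76). Lower were Rnf10 (−1.15 and −1.17), the corepressor gene Ctbp1 (−0.88 and −0.83), Zfp36l2 (−0.81 and −0.88), the replication helicase subunit Mcm5 (−0.79 and −0.79) and the splicing gene Rbm5 (−0.75 and −0.84). Of the erythroid regulators, Gata1 (−0.43 and −1.07), Klf1 (−0.52 and −0.61) and Zfpm1, the GATA cofactor FOG1 (−0.49 and −1.22), were lower there. Most genes were: 67.6% of the 919 genes in WT and 66.2% in KO were lower in the highest part, with median log2 differences of −0.16 and −0.15, and globin took more of the UMIs there.

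The Hbb-bh1 share was used to order the cells in the same way. The Hba-x share of α-type UMIs was then 45.4%, 48.5% and 50.3% in the lowest, middle and highest part in WT and 41.8%, 45.3% and 46.4% in KO. The difference between highest and lowest was 4.93 points in WT and 4.67 in KO, and it turned in KO when only cells with at least 20% globin were used. Depth moved with this order (medians of 1787, 2142 and 2104 UMIs over the 3 parts in WT, and 2176, 2559 and 2524 in KO). With every cell thinned to 1000 UMIs, the difference was 3.75 points in WT and 2.62 in KO. The 10 genes that this order separated most were Map1lc3b, Fmc1, Adipor1, Lsm12, Mrps14, Hspa9, Actc1, Mtch2, Anp32a and Usp1, with 3 of 919 genes past 1.5-fold in both libraries. Map1lc3b, whose product coats autophagosomes, was higher in the highest part (log2 0.71 in WT and 0.87 in KO).

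The adult β genes stood at the edge of what these cells held. Hbb-bs and Hbb-bt together made up 0.500% of β-type UMIs in WT (0.459 to 0.543) and 0.935% in KO (0.858 to 1.02). A UMI of either was present in 46.0% of the globin-rich cells in WT and in 57.7% in KO. For Hbb-bs, the shares of cells were 38.0% and 50.5%, and 23.5% and 31.8% after each cell had been thinned to 1000 UMIs. In the other cells, which should lack the gene, 2.14% in WT and 1.72% in KO had an Hbb-bs UMI. A few cells carried much of the difference. The 5 WT cells with most adult β UMIs had 36, 12, 11, 11 and 10, each beside 226 or more embryonic β UMIs. The 5 such KO cells had 61, 43, 27, 24 and 22. In the KO cells with 61, 24 and 22, embryonic β UMIs were still in the majority (481, 501 and 773).

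The other KO cells, with 43 and 27 adult β UMIs, were the only globin-rich cells in which adult exceeded embryonic β UMIs. The first had 954 UMIs, of which 2 were embryonic β and 36, 26 and 1 came from Hba-a1, Hba-a2 and Hba-x. The second had 998 UMIs, with 6 embryonic β UMIs and 15, 20 and 1 from the same α genes. Both showed almost only adult α and adult β genes, at a depth below the median of 2453, and neither had a UMI of any of the 14 erythroid markers. No globin-rich WT cell was of this kind, and 0 of 563 cells, again taken as up to 3 counts, allows a share of up to 0.533%. Below 5% globin, 4 WT and 17 KO cells had more adult than embryonic β UMIs, but none of them had 5 or more adult β UMIs. Without these 2 cells the adult β share in KO was 0.813% (0.741 to 0.891), and the log2 ratio of Hbb-bs was 0.93. Without the 5 cells of each library with most adult β UMIs, the share was 0.439% in WT and 0.647% in KO. Both exclusions were chosen after the data had been seen.

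Globin UMIs were present in nearly every cell of the libraries, at a level that differed between WT and KO. In the cells below 5% globin, 99.8% in WT and 98.5% in KO held a globin UMI. With every cell thinned to 1000 UMIs, 97.7% and 88.2% did. The members had 4923 CPM in these cells in WT (4892 to 4954) and 2378 CPM in KO (2356 to 2401), a log2 ratio of −1.05 (−1.07 to −1.03). All 5 abundant members were lower in KO past 1.5-fold in these cells, Hba-x with a log2 ratio of −1.22, Hba-a1 of −1.06, Hba-a2 of −1.02, Hbb-y of −0.98 and Hbb-bh1 of −0.91, against 2.48% of 11657 genes lower past that fold. Hbb-bs (−0.47) and Hbb-bt (−0.27) were not past it.

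The background was near constant per cell. It was a median of 8 globin UMIs per cell in WT and of 4 in KO in each of 4 ranges of depth, with means of 8.12 to 8.83 and 4.29 to 4.88, although the ranges had median depths of 1025 to 2652 (WT) and 1153 to 2829 (KO) UMIs. Cell types gave the same picture. Cells below 5% globin were placed in a type when at least 3 of its markers were detected and more than of any other type, which gave 10 types outside the erythroid lineage with at least 50 cells in both libraries. The cardiac muscle gate was the largest (2925 WT and 2844 KO cells), and 1162 and 1266 of its cells had exactly 3 markers. The types held 7.16 (floor plate) to 9.09 (cardiac muscle) globin UMIs per cell in WT and 3.92 (surface ectoderm and placode) to 5.04 (cardiac muscle) in KO. As CPM the levels ran from 3140 in migrating neural crest to 5158 in cardiac muscle in WT, and from 1342 to 2659 in the same types in KO. In all 10 types the level was lower in KO, with log2 ratios from −1.46 in pharyngeal endoderm to −0.95 in pharyngeal and splanchnic mesoderm and every interval below 0. Migrating neural crest, which belongs to the Wnt1 lineage, had a ratio of −1.23 (−1.35 to −1.11), and endothelium, which is not derived from neural crest, had −1.17 (−1.25 to −1.09). Whether the lower level depends on Cre was not tested, and genotype and library cannot be told apart.

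**Figure D5:**
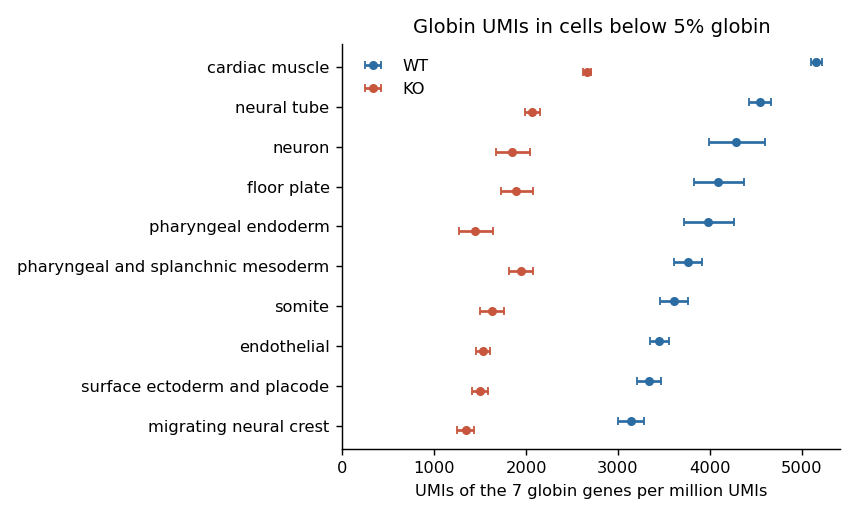
UMIs of the 7 globin genes per 1000000 UMIs (horizontal axis) in cells below 5% globin of 10 marker-gated cell types (rows), in WT (blue) and KO (red), with exact 95% Poisson intervals. The WT values lie between 3140 and 5158 and the KO values between 1342 and 2659, with no overlap between the libraries.

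The background did not have the make-up of the globin-rich cells. The Hba-x share of α-type UMIs was 78.1% in WT and 75.9% in KO in the other cells, against 48.0% and 45.2% in the globin-rich cells. The Hbb-bh1 share of embryonic β-type UMIs was 24.7% and 25.5%, against 38.6% and 42.4%. Hba-x and Hbb-y were thus over-represented in the background, and Hba-a1, Hba-a2 and Hbb-bh1 under-represented, in both libraries. Other ratios did not differ in this way. The α-type share of globin UMIs was 43.0% in WT and 39.2% in KO, against 43.4% and 39.4% in the globin-rich cells, and the Hba-a2 share of the adult α UMIs was 33.4% and 34.1%, against 33.6% and 34.4%. Across the 10 types the Hba-x share ran from 76.2% to 80.9% in WT and from 68.0% to 80.7% in KO, and the Hbb-bh1 share from 22.4% to 27.0% and from 20.6% to 30.7%, so that no type reached the values of the globin-rich cells. The cells with the highest globin percentage had Hba-x shares of 64.6% in WT and 61.2% in KO, and Hbb-bh1 shares of 39.5% and 42.5%. The source of the background was not tested. The background added little to the globin-rich cells: its mean of 8.47 UMIs per cell in WT and 4.58 in KO was 2.44% and 1.07% of the mean of those cells.

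Further genes of hemoglobin production were taken from 10 lists and read in the globin-rich cells. Of the other globin genes, 6 of 10 were in the files. Hbq1b, a θ globin gene of the α cluster, had 107 UMIs in WT and 71 in KO (90.5 and 128 CPM, log2 0.50, interval 0.05 to 0.95), and Hbb-bh2 of the β cluster had 13 and 7 UMIs. Hbq1a, Mb, Ngb and Cygb had at most 1 UMI in either library. Of the heme synthesis genes, 8 of 12 had at least 100 UMIs and none lay past 1.5-fold (median log2 −0.14), with Cpox at 1430 CPM in WT and 1375 in KO and Alas2, the erythroid enzyme of the first step, at 564 and 591. Of the iron genes, 7 of 10 had 100 UMIs and none lay past 1.5-fold (median 0.03). The ferritin heavy chain gene Fth1 had 12914 CPM in WT and 15538 in KO, the ferritin light chain gene Ftl1 had 3178 and 3593, and the mitochondrial iron importer Slc25a37 had 2489 and 2646. Of the genes for globin folding and protection from oxidation, 9 of 10 were tested and none lay past 1.5-fold (median 0.02), with Gpx1 at 3658 CPM in WT and 4873 in KO, Hspa8 at 2194 and 1975, and Glrx5 at 1361 and 1474.

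Red cell membrane genes had 17 of 19 members tested (median −0.02), and only the blood group antigen gene Kel was past 1.5-fold, at 132 CPM in WT and 205 in KO (log2 0.64, interval 0.28 to 1.00). Slc4a1 had 1707 and 1503 CPM, and the glucose transporter Slc2a1 407 and 359. Of the erythroid transcription factors, 7 of 14 were tested (median −0.21) and 1 lay past the fold: Hemgn, a nuclear protein of red cell precursors, with 264 CPM in WT and 424 in KO (log2 0.68, interval 0.43 to 0.93). Zfpm1 (584 and 505 CPM), Klf1 (431 and 369) and Gata1 (373 and 303) were within it. Of 14 regulators of globin switching, 10 were tested (median −0.25) and 1 lay past the fold. Lin28b, an RNA-binding protein of fetal stages, was lower in KO (66.8 and 41.4 CPM, log2 −0.69, interval −1.43 to −0.0041), beside Hmga2 (325 and 252) and Chd4 (234 and 247). Bcl11a and Sox6, known repressors of embryonic globin genes, and Myb, a regulator of definitive blood formation, were named after their values had been seen. Bcl11a had 1 UMI in WT and 0 in KO, Sox6 had 7 and 2, and Myb had 8 and 0. Erythroid receptors and signalling (3 of 10 tested, median −0.50), red cell metabolism (10 of 10, median −0.13) and late maturation (5 of 12, median 0.11) had no gene past 1.5-fold. Among their most abundant genes were Pim1 (1325 CPM in WT and 1173 in KO), Csf2rb (389 and 274) and the erythropoietin receptor gene Epor (114 and 79.3), then Gapdh (2325 and 1939), Ldha (1498 and 1438) and Eno1 (1156 and 874), and last Ubb (740 and 598) and Bnip3l (234 and 252). These counts stand beside the 5.83% of all genes past that fold and are no result about the lists. Over the 24 pools of cell type and library, the genes whose log2 level was most like that of the summed members, of 10513 genes, included Slc30a10 (Pearson r 0.97), Acp5 (0.97), Hemgn (0.96) and Csf2rb (0.96), correlations that rest on the globin-rich pools.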

How the data were processed

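Cells of 2 libraries (10x 3′, WT and KO, 1 each) were analysed. The submitters' processing notes name Cell Ranger 1.3.1, Scanpy and mm10. The deposited values are a score made by the authors: UMI counts were divided by the total of the cell, scaled to 1641 and square-root transformed, after removal of mitochondrial and ribosomal UMIs and, per their methods, of doublets, though whether before deposit is not said. No doublet caller was run here. UMIs were recovered by squaring and dividing by the smallest nonzero square of the cell (100% of values whole within 0.01). Their sums per library and cell set were expressed per 1000000 UMIs. Intervals are exact (Poisson, Clopper-Pearson binomial, conditional for ratios) at 95%, computed with NumPy 2.4.6 and SciPy 1.17.1. Counts of genes past a fold needed 100 UMIs over both libraries and had 0.5 UMI added to each side, as did folds between cell sets of 1 library. Ratios printed for a gene between the libraries had none added. Thinning to 1000 UMIs left out 1361 WT and 125 KO cells, 9 and 3 of them globin-rich. Named genes were the members, the other globin genes, the 3 most abundant genes of each list, any past 1.5-fold, and the top genes of each ranking. A few genes that this rule names are not reported here. The members, lists and markers were chosen with earlier results of these data known. The fold count and the UMI recovery were tested on simulated data.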

Additional observations from a re-analysis of the deposited data

How the results depend on the processing

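With 1 library per genotype no library could be left out. No paired analysis was possible because each genotype had a single library and no result came from a test. Across the settings tried, 55 of the main values stayed within their counting interval or within 1.5 times a count, 42 moved beyond it and 1 turned, while of the values of single genes 40 stayed, 34 moved and 3 with an interval without 0 turned. Hba-a2 and Hbb-bt, whose intervals hold 0, also changed sign in some settings, both when thinned (each −0.06). Except where a setting itself changes which cells or genes enter, the cause was not tested. The number of genes tested changes with the limit of globin and with the UMI minimum. The counts of genes past a fold below therefore have no shared base and are not shares to set against the main 5.83% of 2968 genes. With a limit of 1% globin in place of 5%, the log2 ratio of the shares of globin-rich cells was −2.52, 7 members and 1458 genes lay past 1.5-fold (main counts 1 and 173), Hba-x turned to 0.65 and Hba-a1 to 0.93, and the KO − WT differences were 4.80 points for the Hbb-bh1 share and −5.15 for the Hba-x share. With a limit of 20%, 2 members and 48 genes lay past the fold, the differences were 3.17 points (Hbb-bh1 share), −3.75 (Hba-x share) and −7.42 (α-type share), and the Hba-x share between the highest and lowest cells by Hbb-bh1 share differed by 3.09 points in WT and turned to −0.80 in KO. Without cells that had 3 markers of another type, 2 members lay past the fold, and the Hba-x and α-type differences were −1.98 and −5.17 points. As means over cells, 2 members lay past the fold, and the Hba-x, α-type and adult β differences were −1.76, −3.11 and 0.996 points. The means of the deposited square-root values also gave 2 members, and in each of these settings with 2 members they were Hbb-bs and Hbb-bt. With cells thinned to 1000 UMIs, the α-type difference was −4.65 points, the background log2 ratio −0.94, and the differences by Hbb-bh1 share 3.75 (WT) and 2.62 (KO). The adult β difference of 0.435 points was 0.333 among cells with at least 3 erythroid markers, 0.314 without the cells with more adult than embryonic β UMIs and 0.207 without the 5 top cells of each library. The last 2 settings, and a subtraction of the background, which moved none of the Hbb-bh1, Hba-x, α-type and adult β differences beyond their interval, were chosen after seeing the data. The background log2 ratio was −0.88 in cells below 1% globin, −0.92 below 20%, −0.99 with the trimmed mean of M values, under which Hba-a1 turned to 0.016 in globin-rich cells, −0.98 with the median of ratios, and −1.02 and −1.01 in cell types gated by 2 and 4 markers. The Hbb-bh1 share of the background minus that of globin-rich cells, −14.0 points in WT and −16.9 in KO, was −13.2 in WT below 1% globin, and −7.60 in WT and −7.69 in KO below 20%. Genes past the fold numbered 16 at 2-fold, 870 at a smaller fold, 1394 with at least 20 UMIs and 4767 with at least 1 UMI. Cutting the cells by Hbb-bh1 share into 2 parts gave 2.54 points in WT and 2.56 in KO, and into 5 parts 6.37 in KO. The adult β genes rest on few counts, 553 UMIs in WT and 533 in KO.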

Other observations

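The megakaryocyte-gated cells below 5% globin were only 2 in WT and 4 in KO, but the Hbb-bh1 share of their embryonic β-type UMIs was above that of the background. Their level was not apart in KO, with a mean of 4.75 globin UMIs per cell against 4.58 in all cells below 5%. In WT it was 28 against 8.47. In WT, 40 of their 45 embryonic β-type UMIs came from Hbb-bh1, or 88.9% (75.9 to 96.3), and in KO 7 of 10, or 70% (34.8 to 93.3), against 24.7% and 25.5% over all cells below 5%. The intervals count UMIs and not cells, and so few cells allow no comparison of the libraries.

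Cells with at least 3 erythroid markers but less than 5% globin numbered 24 in WT and 8 in KO, of 553 and 216 cells with these markers. Those that the gate placed in the erythroid type, 16 in WT and 3 in KO, had a median of 2.68% and 1.79% globin UMIs, and in WT their Hba-x share of α-type UMIs was 57.1% (50.7 to 63.3), between those of the globin-rich cells and of the background. Their Hbb-bh1 share of embryonic β-type UMIs in WT was 25.5% (20.8 to 30.7), near the 24.7% of the background and below the 38.6% of the globin-rich cells. The 3 KO cells had an Hba-x share of 47.1% (23.0 to 72.2) and an Hbb-bh1 share of 33.3% (19.1 to 50.2), with wide intervals.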
